A study of Mus musculus with 12 samples.

Results

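The data described here are the spot values of 6 genes of the bone matrix and of cell adhesion to it, measured in the healing callus of a broken mouse femur. Col1a1 and Plod3 lie on a hypoxia gene membrane, Sparc, Fn1 and Itga5 on an angiogenesis gene membrane, and Ctgf on both. They were chosen by name, 6 of the 188 genes on the 2 membrane types. The study compared WT mice with mice labelled HET for HIF-1a, which the series title describes as partly deficient in HIF-1alpha, after a closed and fixed fracture of the femur. Callus RNA was taken at 7, 10 and 14 days after fracture, pooled from 3 animals per group, and hybridised to 1 array per genotype, day and membrane type. These are 12 arrays in all and no replicates. The labels name neither strain, age nor the kind of allele. Nor is it stated whether both membrane types received the same pool. The callus is a mixed tissue, so fewer cells of a type and less RNA per cell cannot be told apart.

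A callus first forms as a soft, cartilage-rich bridge and is then replaced by woven bone. Type I collagen, whose main chain is encoded by Col1a1, is the chief protein of that bone, and Plod3 encodes an enzyme that hydroxylates and glycosylates collagen lysines, which prepares the fibre for crosslinking. Sparc, also called osteonectin, encodes a glycoprotein that binds collagen and mineral. Fibronectin, the product of Fn1, is an early scaffold for cells and collagen, and Itga5 encodes the alpha chain of the integrin that binds it. Ctgf (now Ccn2) encodes a secreted matricellular protein that TGF-beta induces. HIF-1 binds the core letters ACGTG or GCGTG in DNA and is known to induce collagen-modifying enzymes in hypoxic cells.

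In the RefSeq annotation of GRCm38.p6 Col1a1 spans chr11:94936224-94953042, Plod3 chr5:136987019-136996646, Ctgf chr10:24595442-24598683, Sparc chr11:55394159-55420080, Fn1 chr1:71585473-71653280 and Itga5 chr15:103344286-103366791. The files do not say which part of a transcript a spot probes.

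RefSeq promoter windows (GRCm38.p6, 250 bases before to 50 after the start) were at hand for 3 of the 6 genes and are shown because HIF-1a is the altered gene. Capitals mark ACGTG or GCGTG on either strand, read on the gene's own strand, and so also CACGT and CACGC.
Plod3: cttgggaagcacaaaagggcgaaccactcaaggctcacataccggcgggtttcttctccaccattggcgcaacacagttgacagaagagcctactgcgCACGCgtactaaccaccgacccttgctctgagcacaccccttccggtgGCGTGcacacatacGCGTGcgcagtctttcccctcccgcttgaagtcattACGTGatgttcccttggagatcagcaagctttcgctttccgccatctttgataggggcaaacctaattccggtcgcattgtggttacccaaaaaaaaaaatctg
Itga5: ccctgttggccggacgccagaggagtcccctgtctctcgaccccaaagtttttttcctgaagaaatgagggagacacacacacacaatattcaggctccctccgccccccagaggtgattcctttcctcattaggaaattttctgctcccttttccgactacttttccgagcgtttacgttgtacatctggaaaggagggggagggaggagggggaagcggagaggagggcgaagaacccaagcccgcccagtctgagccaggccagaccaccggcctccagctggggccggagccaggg
Sparc: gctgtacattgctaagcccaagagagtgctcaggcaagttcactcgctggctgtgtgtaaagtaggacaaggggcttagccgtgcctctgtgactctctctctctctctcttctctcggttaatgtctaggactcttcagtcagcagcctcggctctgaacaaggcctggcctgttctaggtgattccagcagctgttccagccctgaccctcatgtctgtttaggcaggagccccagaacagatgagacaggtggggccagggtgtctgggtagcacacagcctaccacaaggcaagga
The Plod3 window is chr5:136986769-136987068 on the plus strand, the Itga5 window chr15:103366742-103367041 on the minus strand and the Sparc window chr11:55420031-55420330 on the minus strand. Plod3 holds 4 matches, 3 of GCGTG and 1 of ACGTG, whose leftmost bases, counted from the start site, lie at -152, -104, -90 and -54. No match overlaps another. Among 32851 promoter windows of this length, 43.8% hold at least 1 match and 3.86% hold at least 4. The Itga5 and Sparc windows hold 0, which says only that these letters are not in these windows.

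Each array gives a spot density on a linear intensity scale with an upper end. A gene was taken as above background where it was brighter than the brightest of 6 control spots (PUC18 plasmid DNA or blank), and as at the ceiling at 45701 or more, which is 90% of the highest density on any array. The arrays differed in overall brightness. Median gene spot densities in WT were 4.66, 301 and 103 on the hypoxia arrays at days 7, 10 and 14, against 263, 1114 and 26.0 in HET. On the angiogenesis arrays they were 34.1, 1738 and 1229 in WT and 163, 589 and 168 in HET. Between 9 and 91 of 100 genes were above background per array, with the fewest at day 7. Of the osteoblast markers, Col1a1 was above background on all 6 hypoxia arrays and Sparc on all 6 angiogenesis arrays, whereas Spp1 was not above background at day 7. No chondrocyte, blood or muscle marker of the lists used is on either membrane.

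The collagen gene Col1a1 gave very bright spots in both genotypes, near the ceiling at day 7 and not resolved later. The WT spots had densities of 41175, 49000.1 and 48788 at days 7, 10 and 14, and the HET spots 45580.2, 49757 and 49348. The 4 later arrays were at the ceiling, so Col1a1 has no fold between genotypes at days 10 and 14, nor between those days. At day 7 the HET spot was 1.11 times as bright as the WT spot. The WT spot stood at 86.7% and the HET spot at 93.6% of its array's highest density, so this fold is compressed by the scale. The day 7 difference was 0.14 log2 units without normalization and -0.02 after quantile normalization. Repeat spots of reference genes on 1 array had a pooled standard deviation of 0.33 log2 units and a median one of 0.11. Those cover spot noise alone, not the spread between pools. Median and reference gene scaling gave -0.24 and -0.50, so no direction is given. Over its 6 arrays Col1a1 stood at 86.7% to 99.7% of the array's highest density.

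Ctgf was likewise bright throughout. The WT hypoxia arrays gave 39709.5, 48552 and 49310 at days 7, 10 and 14, and the HET ones 47096, 46952 and 48780.1. Its angiogenesis array densities lay between 47575 and 50583. All 6 angiogenesis arrays and 5 of the 6 hypoxia arrays were at the ceiling, the exception being WT at day 7. There the HET spot was at least 1.19 times as bright, which is 0.24 log2 units without normalization and 0.02 after it. Under median and reference gene scaling the measured difference turned to -0.14 and -0.40, so no direction is given. The remaining Ctgf values have no order.

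**Figure D1:**
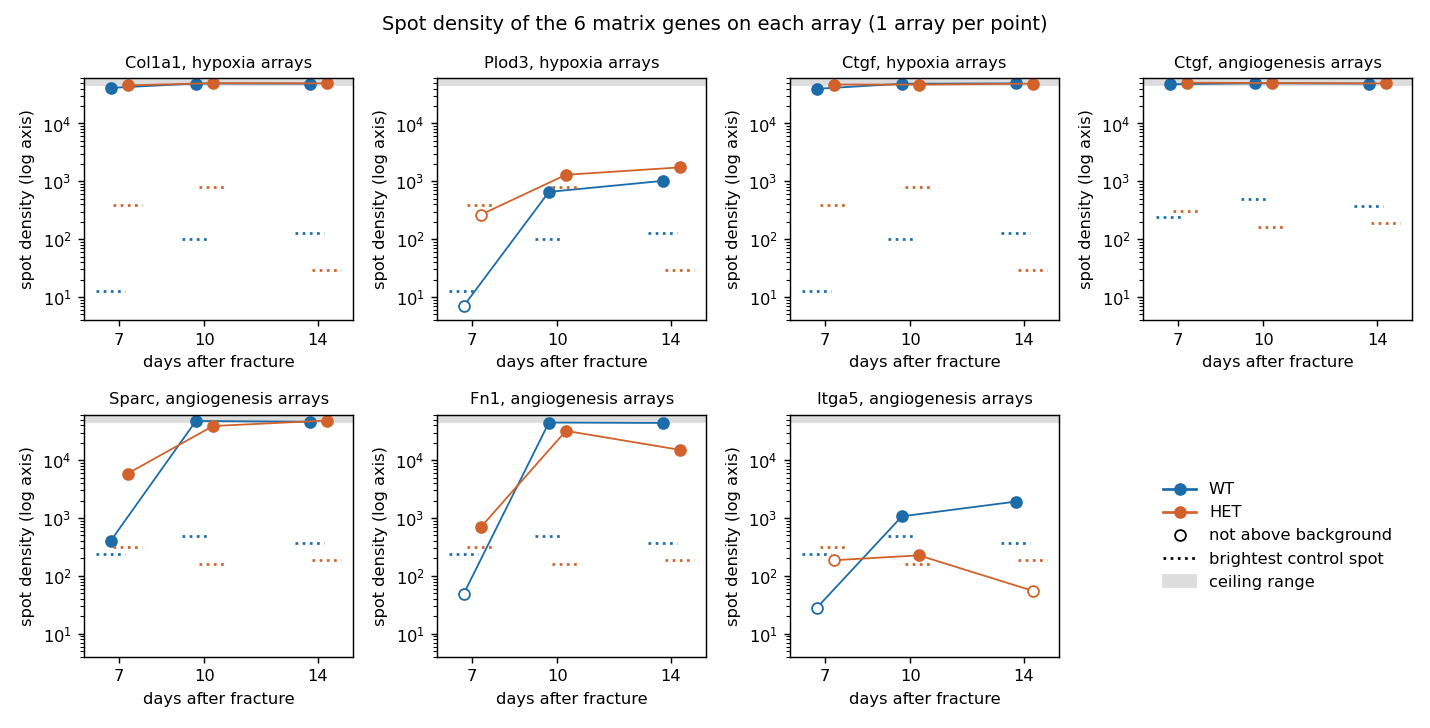
Spot density (log axis) of each gene against days after fracture in WT and HET, 1 array per point, with dotted marks at the brightest control spot of the array and a grey band at the ceiling. Col1a1 and Ctgf sit in or next to the band on every array, Sparc and Fn1 lie higher at day 10 than at day 7, and Itga5 ends at 1921 in WT and at 55.3, under the control spots, in HET.

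Plod3, the collagen lysine-modifying enzyme gene, was not above background at day 7 and was measured on all 4 later arrays. Its WT densities were 6.99, 657 and 1017 at days 7, 10 and 14. The HET densities were 265, 1298 and 1741. The HET spot was the brighter one at both later days, by 1.98-fold and 1.71-fold. Control spots moved with the day 10 difference, since the brightest of them was 99.5 in WT and 805 in HET, and with the median control spot subtracted the day 10 difference was 0.57 log2 units in place of 0.93. At day 14 the controls ran the other way, with a brightest spot of 128 in WT and 29.6 in HET, and the difference was 0.76 without normalization and 0.84 after subtraction.

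After quantile normalization Plod3 differed by -0.38 at day 10 and by 0.75 at day 14, HET minus WT. The day 14 direction held under median scaling (2.06), reference gene scaling (1.13) and with the authors' deposited ratios (0.78), while the day 10 direction did not, with -0.84 under median scaling against 0.32 and 0.95 under the other 2. The deposited ratios are no separate check. They divide by Actb, which was at the ceiling in both genotypes at both days, and so they nearly repeat the unnormalized densities. With 1 background limit for all hypoxia arrays, the 805 of HET at day 10, the WT spot of day 10 fell below it and no bound remained. At day 7 Col1a1 was measured near the ceiling and Ctgf was a bound that leaves its size unknown. By quantile-normalized values 0 of these 2 were shown to be 2-fold apart, beside 26.3% of 19 hypoxia array genes with a fold or bound. Plod3 was not at day 10 or day 14 either, beside 27.1% and 33.3%, although the day 14 value passed 2-fold under median and reference gene scaling. In the unnormalized densities, where Plod3 was also under 2-fold, these shares were 62.8% and 50%. Over the genes measured on both arrays, above background and below the ceiling, the median unnormalized difference was 1.18 at day 10 (38 genes) and -0.60 at day 14 (28 genes). Plod3 lay below the median at day 10, with 20 of 37 other genes above it, and over it at day 14, with 3 of 27 above it.

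Sparc, the osteonectin gene, showed its genotype difference at day 7. Its density there was 402 in WT, where it was the dimmest gene above background, and 5865 in HET, 14.6-fold brighter. The HET sample of day 7 has 2 files, of which the one used is headed het and the other equals the WT array, so the day 7 differences on the angiogenesis arrays rest on that header. At day 10 the WT spot was at the ceiling at 47551 and the HET spot below it at 38891, and at day 14 both were at the ceiling, at 46131 and 48388. The day 7 difference was 3.78 log2 units without normalization, 2.69 with median scaling, 3.49 with reference gene scaling and 1.02 after quantile normalization. Its size thus depended strongly on the scaling, from 1.02 to 3.78 log2 units, and its sign did not. The normalized value stood just above the 2-fold line and fell to a bound of 0.90 with 1 background limit. Control spots were brighter on the HET array too, with a median of 288 against 94.4, and subtracting them left 4.07. Sparc was 1 of 1 members with a fold that was at least 2-fold higher after quantile normalization, where 16.7% of 6 genes were. Without normalization it was 1 of 2, with Fn1 as a bound, where 25% of 8 genes were.

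At day 10 the unnormalized difference of Sparc was -0.29 log2 units or lower, since the WT spot was at the ceiling. After quantile normalization the measured value turned to 0.36, and no direction is given.

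Fn1, the fibronectin gene, was above background on 5 of 6 arrays and below the ceiling on all of them. The WT densities were 48.9, under the brightest control spot of 241, then 44692 and 43946. The HET densities were 692, 32102 and 15099. The HET spot was therefore the brighter one at day 7, by at least 1.72-fold, and the dimmer one at days 10 and 14, by 1.39-fold and 2.91-fold. At day 10 the WT spot stood at 89.4% of its array's highest density, so the fold there is compressed by the scale.

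Without normalization Fn1 differed by -0.48 log2 units at day 10 and -1.54 at day 14, and after quantile normalization by -0.22 and -0.61. Under median scaling both values turned positive, to 1.20 and 1.14. At day 7 the bound was 0.61 without normalization and none could be given after it. Array brightness moved with these values. The median WT density was 2.95 times the HET median at day 10 and 7.32 times at day 14. Over genes measured on both arrays the median unnormalized difference was -1.51 at day 10 (63 genes) and -1.27 at day 14 (36 genes). Fn1 lay above that median at day 10, with 54 of 62 other genes lower, and a little below it at day 14, with 15 of 35 lower.

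Itga5, the fibronectin receptor chain gene, was above background on 3 of 6 arrays. Its WT densities were 28.0, 1071 and 1921 at days 7, 10 and 14. Those in HET were 186, 226 and 55.3, and of these only the day 10 value was above the control spots. The spots were 4.73-fold apart at day 10 and at least 9.67-fold at day 14, with WT the brighter. Without normalization the differences were -2.59 log2 units at day 10 and -3.12 or lower at day 14, where HET was not above background. Of the 62 other genes measured on both arrays at day 10, 3 were lower, and the median was -1.51. The day 14 bound has no rank, and the median over the 36 genes measured on both arrays was -1.27.

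The size for Itga5 depended strongly on the scaling. After quantile normalization it was -1.05 at day 10 and the bound was only -0.15 at day 14. Median scaling gave -0.91 and -0.45 or lower, and reference gene scaling -2.18 and -3.20 or lower. The day 10 values all have the same sign. A bound is given only toward the array where the gene was above background, so the sign of the day 14 bounds was fixed by that rule. With 1 background limit for all 6 arrays, the 490 of the WT array at day 10, the HET spot at day 10 was no longer above background and no bound remained after normalization.

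**Figure D2:**
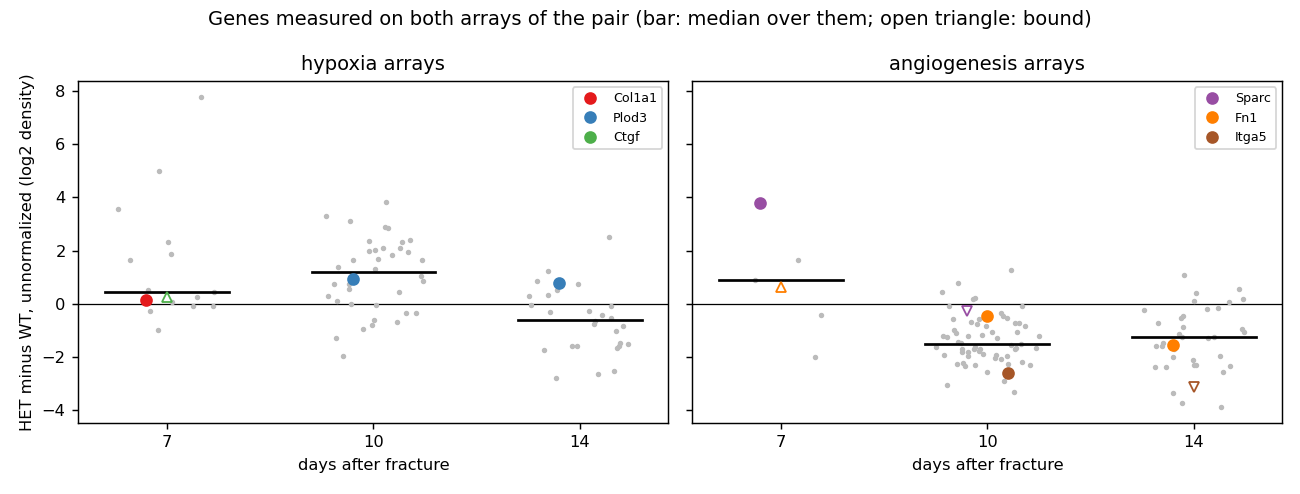
HET minus WT difference of unnormalized log2 density at each day, with 1 grey point for each gene above background and below the ceiling on both arrays, a bar at the median over all such genes, coloured points for the matrix genes and open triangles for bounds, pointing the way the value could lie. On the angiogenesis arrays the median is -1.51 at day 10 and -1.27 at day 14, while Itga5 lies at -2.59 and at a bound of -3.12. The medians leave out genes not above background on 1 array of the pair, as Itga5 was at day 14.

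Counted together on the angiogenesis arrays, 1 of 2 members with a fold (Itga5) was at least 2-fold lower in HET at day 10 after quantile normalization, where 13.3% of 75 genes were. At day 14, 0 of 2 were shown to be 2-fold apart, with Itga5 as a bound that leaves its size unknown, where 22.2% of 45 genes were so in either direction. Without normalization 1 of 3 was lower at day 10, beside 63.4% of 71 genes, and 2 of 2 at day 14 (Fn1 and Itga5), beside 64.4% of 73 genes. The day 14 count is therefore not above what most genes of that pair of arrays showed.

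**Figure D3:**
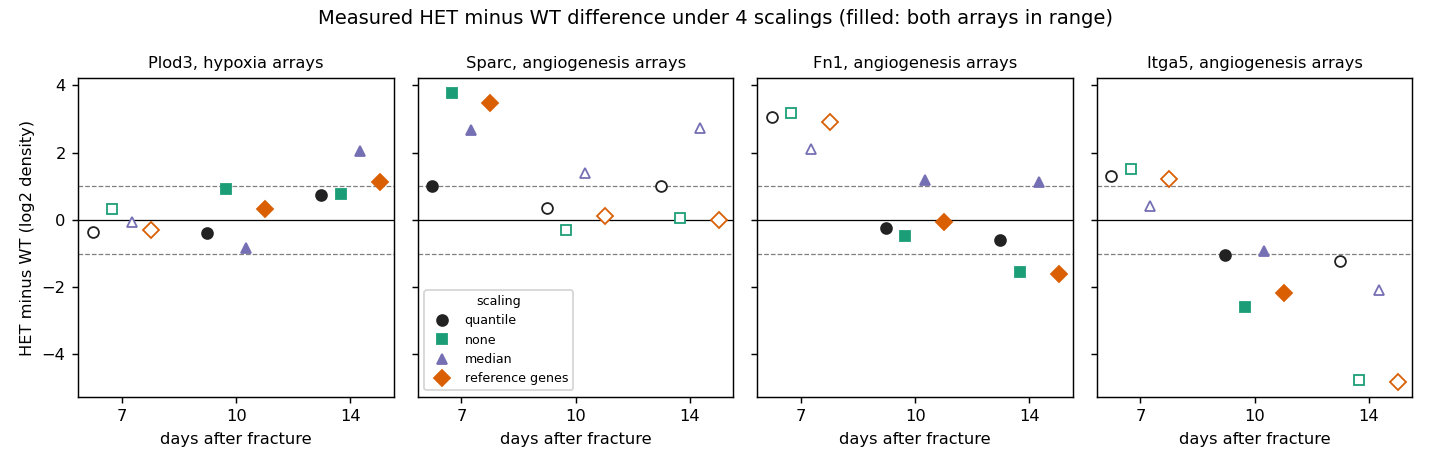
Measured HET minus WT difference of log2 density by day for Plod3, Sparc, Fn1 and Itga5 under 4 scalings. Col1a1 and Ctgf, at or near the ceiling on every array, are left out. Filled symbols have both arrays above background and below the ceiling, open symbols do not, and dashed lines mark a 2-fold difference. Itga5 lies below 0 under all 4 scalings at days 10 and 14, whereas at those days Fn1 lies above 0 under median scaling and below it under the other 3. Symbols of 1 day are spread sideways for legibility.

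Taken across days 7, 10 and 14 with day as a block, the genotypes were compared with limma. It called 0 of 73 genes on the hypoxia arrays (0%), with 3 at an unadjusted p under 0.05, and 0 of 96 on the angiogenesis arrays (0%), with 2. Plod3 had a mean HET minus WT difference of 0.0044 log2 units with a 95% confidence interval from -1.08 to 1.09 (adjusted p = 0.99). Sparc stood at 0.80, with an interval from -0.39 to 1.99 (adjusted p = 0.87). Fn1 stood at 0.75, from -1.41 to 2.90 (adjusted p = 0.87), and without day 7 it turned to -0.41. Itga5 stood at -0.32, from -2.03 to 1.39 (adjusted p = 0.91), and turned to 0.04 without day 10 and to 0.13 without day 14. The 3 days are not replicates, so the error of this fit holds the change of the genotype difference between days, and it leaves 2 residual degrees of freedom. Not above background but entered in it are Plod3 and Itga5 at day 7 in both genotypes, Fn1 at day 7 in WT and Itga5 at day 14 in HET, and Sparc enters with 3 of 6 arrays at the ceiling.

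Between day 7 and day 10 the densities of Sparc, Fn1 and Plod3 were higher at the later day in both genotypes. Sparc was 6.63-fold brighter at day 10 in HET and at least 118-fold in WT, where it reached the ceiling. Fn1 was 46.4-fold brighter in HET and at least 111-fold in WT. Plod3 was at least 51.9-fold brighter in WT and at least 2.97-fold in HET. Itga5 was at least 2.67-fold brighter in WT, whereas in HET its day 7 value was not above background and no bound could be set. In WT all 4 genes thus went from the background or its edge to a clear signal.

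The limma fit of the day difference gave different answers for raw and normalized values. Without normalization the day 10 minus day 7 difference was 7.46 log2 units for Fn1 with a standard error of 1.43 (adjusted p = 0.0209) and 4.64 for Plod3 with a standard error of 0.39 (adjusted p = 0.00763). For Sparc it was 4.77 with a standard error of 1.35 (adjusted p = 0.0552), and for Itga5 2.34 with a standard error of 1.69 (adjusted p = 0.294). The last pair did not pass. The Plod3, Itga5 and Fn1 sizes rest on day 7 values at background, for Fn1 in WT, and that of Sparc on a WT day 10 value at the ceiling, so they are neither resolved sizes nor bounds. The standard errors and p-values, under any scaling, rest on the same values. For Plod3 the day 7 densities of 6.99 in WT and 265 in HET became 5.08 and 5.41 log2 units after background correction. Its p-value therefore sets a floor beside a signal and is no test of a measured change. After quantile normalization none of the 4 passed, with 0.69 for Fn1, -0.06 for Plod3, -0.69 for Sparc and -1.13 for Itga5 (adjusted p of 0.641, 0.985, 0.452 and 0.4003). With reference gene scaling Fn1, Sparc and Plod3 passed, at 8.37, 5.68 and 2.89 (adjusted p = 0.00031, 0.0030 and 0.0246), where 70.8% of the angiogenesis and 35.6% of the hypoxia array genes were called. That scaling is itself limited, since Actb was at the ceiling on every array but the hypoxia array of WT at day 7. Gapdh and Ppia were there on some arrays, among them both hypoxia arrays of day 10. On the hypoxia array of WT at day 7 Rpl13a had the density of the brightest control spot, 12.7. The fit called 52.1% of 73 genes on the hypoxia arrays without normalization and 0% after it, with 14 genes at an unadjusted p under 0.05. It called 29.2% of the 96 angiogenesis array genes without normalization and 32.3% after it. The median gene differed by 3.47 and 3.07 log2 units between these days without normalization, so the higher Plod3 and Fn1 densities came with brighter arrays as a whole. Quantile normalization gives arrays with few detected genes the same distribution as arrays with many.

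Between day 10 and day 14 Plod3 was the member that passed after quantile normalization. Its density was 1.55-fold higher at day 14 in WT and 1.34-fold in HET, and after quantile normalization the difference was 3.58 log2 units with a standard error of 0.43 (limma adjusted p = 0.0273), one of 12 genes called (16.4% of 73). Median scaling gave 3.42 and kept the call (adjusted p = 0.0115), with 34.2% of genes called. It also called Col1a1 at 2.89 and hypoxia array Ctgf at 2.93 (adjusted p = 0.0281 and 0.0277). Both were at the ceiling in both genotypes at both days, so that scaling also calls spots whose level is not resolved. Without normalization the Plod3 difference was 0.52 (adjusted p = 0.362), and with reference gene scaling 0.97 (adjusted p = 0.352), so the call was lost. The median hypoxia array gene differed by -2.90 log2 units without normalization over the same days. Of the 96 angiogenesis array genes limma called 0 (0%), with 7 at an unadjusted p under 0.05. Sparc was at 1.71 (adjusted p = 0.436), Itga5 at 0.69 (adjusted p = 0.821) and Fn1 at 0.19 (adjusted p = 0.962). Fn1 density at day 14 was 0.98 of its day 10 value in WT, near the ceiling, and 0.47 of it in HET, where the array median went from 589 to 168. After quantile normalization the changes were 0.38 and 0.00 log2 units, and the difference between them was not tested. This contrast and the earlier one share the day 10 arrays.

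The angiogenesis arrays carry 12 other genes of matrix and adhesion, and the hypoxia arrays carry 0. None of the 12 was above background on either day 7 array. At day 10, 9 were above background in WT and 12 in HET, and at day 14, 11 and 8. After quantile normalization 1 of 9 with a fold or bound was at least 2-fold lower in HET at day 10 and 0 higher, with a median of -0.11, the same as the -0.11 over all 75 genes, of which 10 were lower. Without normalization 6 of 8 were lower, with a median of -1.66, beside 45 of 71 genes and -1.45. With reference gene scaling 5 of 7 were lower, beside 36 of 67 genes, and with median scaling 0 of 9 were 2-fold apart. That gene was Thbs2, a thrombospondin that restrains vessel growth, at -1.91 or lower with WT at the ceiling, and at -0.35 or lower without normalization. Under median and reference gene scaling the measured sign turned and no fold is given. Vcam1, an adhesion molecule for leukocytes, was at 0.59, Thbs4 at -0.59 and Thbs3 at -0.58. Without normalization these 3 were at -0.85, -1.99 and -2.31.

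Of 8 such genes with a fold or bound at day 14, 0 were shown to be 2-fold apart, with a median of 0.41 beside 0.12 over all 45 genes, and Itgav, as a bound, could exceed 2-fold. Without normalization 8 of 10 were at least 2-fold lower in HET, with a median of -1.30, beside 47 of 73 genes (64.4%) and -1.497 over all of them. Median scaling turned this, with 5 of 8 higher and 1 lower and a median of 1.48, beside 23 and 5 of 44 genes, so no direction is given for the list. The integrin alpha V chain gene Itgav, a partner in other matrix receptors, was above background in WT only, as Itga5 was. Its densities were 3076 and 144, with a bound of -3.82 without normalization and -0.98 after it. Cdh5 (960 and 131) and Itgb3 (613 and 127) were also above background in WT only. This was common on that pair, with 79 genes above background in WT and 44 in HET. Thbs2 was at -0.74, the tenascin gene Tnc at 0.72 and the osteopontin gene Spp1 at 0.61. Without normalization they were at -1.08, -1.26 and -0.21. Over the 3 days 0 of the 12 passed the limma test of genotype. Between day 7 and day 10 the test called 4 of 12 higher and 3 lower after quantile normalization, among 17 higher and 14 lower of all 96 genes, and 6 higher and 0 lower without it, among 28 and 0. The 3 called lower were Spp1 at -2.28, Tnc at -3.15 and Col18a1, a collagen of vessel basement membranes, at -2.07 (adjusted p = 0.0288, 0.0177 and 0.0443). Their densities were higher at day 10 in WT, where Tnc (483) and Col18a1 (77.2) were still below the brightest control spot of 490. In HET the Tnc density was lower at day 10, at 181 against 204, and those of Spp1 and Col18a1 were higher. Without normalization all 3 differences turned positive, to 4.17, 1.27 and 0.54, where Spp1 was called higher (adjusted p = 0.0413). None was above background at day 7, so no direction is given for them. Thbs1 was higher at day 10 by 5.63 log2 units after normalization (adjusted p = 0.00625) and by 8.87 without it (adjusted p = 0.00563). It was at background at day 7 and at the ceiling on all 4 later arrays, so its sizes are not resolved and its p-values rest on the same values.

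**Figure D4:**
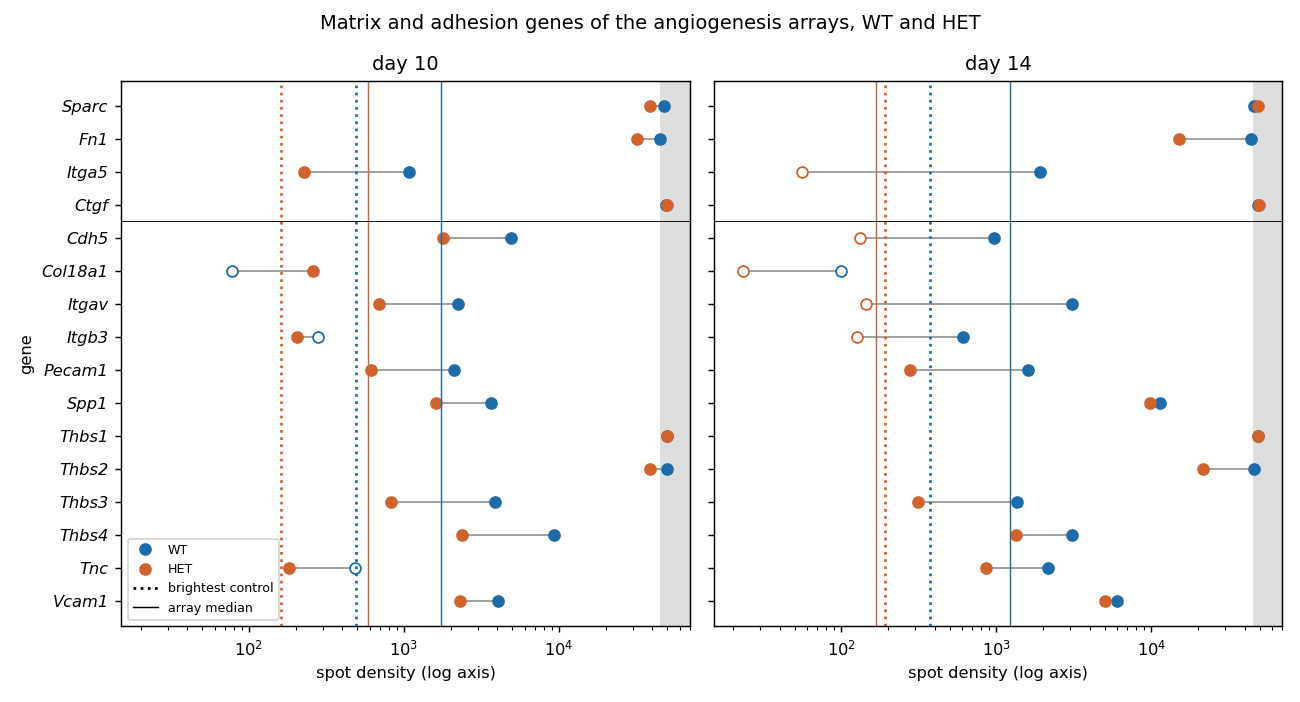
Spot density (log axis) in WT and HET of the 4 members (top) and the 12 other matrix and adhesion genes of the angiogenesis arrays at days 10 and 14; open points are not above the brightest control spot (dotted line), solid lines are array medians and the grey band is the ceiling. Itga5 and Itgav span from 1921 and 3076 in WT to 55.3 and 144 in HET at day 14, while Spp1, at 11369 and 9740, lies close together.

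The genes whose normalized log2 densities followed each member most closely over the 6 arrays are given as a description, since the points share array, brightness and rank. Plod3 was closest to the ribosomal protein gene Rpl13a (Pearson r = 0.92) and to Chga (0.87) among 28 hypoxia array genes above background on at least 4 arrays. Fn1 was closest to the ribonuclease gene Rnase4 (0.94) and Thbs4 (0.75) among 40 genes, and Sparc to Spp1 (0.75) and Tgfb1 (0.72). Itga5 had no close match, with 0.59 for Tgfbr2 and 0.54 for Ppia, and the latter turned to -0.35 in unnormalized values. In those values the correlations of Fn1 with Rnase4 and of Sparc with Spp1 were 0.995 and 0.91. The values for Col1a1 and Ctgf reflect ranks among spots at the ceiling and are not given. Those given for Sparc include 3 of 6 arrays at the ceiling, and Itga5 was above background on only 3 of 6.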

How the data were processed

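Per the labels' protocols, RNA of 3 animals was pooled in equal parts and 3 ug of it amplified and labelled with biotin. The authors deposited average spot densities on a linear intensity scale, per the file headers, with no local background. No header or label names the imaging software. The authors also deposited a linear ratio per spot, which equals the density less the array's lowest density, divided by the same quantity for Actb. It is used as an alternative. The angiogenesis HET sample at day 7 has a file headed as the WT array, which was left out.

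Densities were corrected with limma's normexp method (limma 3.58.1, R 4.3.3) with an offset of 25.9, 10% of the median gene spot density of 259.0. They were then taken to log2, averaged per gene and quantile normalized over the 6 arrays of a type. Unnormalized values skip the last step. Genotypes at 1 day were compared without a test, called at 2-fold (1 log2 unit). A gene not above background or at the ceiling on 1 array has a bound, set against the dimmest gene above background or its own value there, and a gene so on both arrays has no fold. Genotype over the days and the day differences were fitted with limma (lmFit and eBayes, genotype and day as terms), two-sided, with Benjamini-Hochberg adjustment over genes above background on at least 1 array, at 0.05. The pools are single samples, so p-values measure neither the spread between animals nor that between pools of 1 condition. With both terms in the fit, the error holds the change of the genotype difference between days and the noise of single arrays. In a day contrast the WT and HET arrays thus stand in for replicates of a day, which they are not. The fit was tested on simulated data with even noise and neither ceiling nor background floor, so that test does not cover these limits of the real arrays. The alternatives were 3 other scalings, no background correction, another offset, filter and ceiling, the deposited ratios, the blocks and each day left out. The reference genes were Actb, Gapdh, Ppia and Rpl13a.

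The members and lists were chosen with earlier results of these data known. Named are the members, the 4 listed matrix genes with the largest difference per comparison and the 2 closest genes by correlation. Thbs1 in the day comparison was picked after its values were seen. Of the marker lists, the hypoxia arrays carry 1 osteoblast and 2 adipocyte genes and the angiogenesis arrays 2 osteoblast, 7 endothelial, 2 macrophage and 2 fibroblast genes. Fabp4 was above background on all 6 hypoxia arrays and Lep on none. The endothelial, macrophage and fibroblast genes were above background on no day 7 array and, at days 10 and 14, 5 and 5, 2 and 2, and 2 and 2 of them were so in WT and 7 and 3, 2 and 2, and 2 and 1 in HET.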

Additional observations from a re-analysis of the deposited data

Results flagged for a closer look

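Itga5 moved in opposite directions between day 10 and day 14 in the 2 genotypes. Its unnormalized log2 density changed by 0.81 in WT and by -1.35 in HET, 1 array per genotype and day. The HET value at day 14 was not above background, and the difference between the genotypes was not tested. After quantile normalization the changes were 0.77 and 0.60, in the same direction, while the median WT and HET densities of the whole array went from 1738 to 1229 and from 589 to 168.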

How the results depend on the processing

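No paired analysis was possible because each group holds 1 array and the labels carry no replicate numbers to pair by. The fit of genotype over the days sets WT beside HET within each day through its day block, and without that block it also called 0 genes on both membrane types. The alternative with the median control spot subtracted was chosen after seeing the data.

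Counts of genes at least 2-fold apart between genotypes depended on the processing, and the cause was not tested. On the hypoxia arrays they were 5, 13 and 15 at days 7, 10 and 14. They became 8 and 27 at days 7 and 10 without normalization, and also with control spots subtracted. Median scaling gave 8 and 24 there, and reference gene scaling 28 at day 10. No filter gave 34 at day 7 and 38 at day 14, and 1 background limit gave 2 and 5. On the angiogenesis arrays they were 2, 16 and 10. They became 47 at day 10 and 48 at day 14 without normalization or with control spots subtracted, 39 and 50 with reference gene scaling, and 28 at day 14 with median scaling. At day 7 they were 1 without background correction, 54 with no filter, 1 with 1 limit and 8 with the authors' deposited ratios. At day 10, 1 limit gave 9, and at day 14 no filter gave 19 and the deposited ratios 18. The split into higher and lower moved too, given here without normalization, then with median and reference gene scaling. On the hypoxia arrays 3 and 2 at day 7 became 7 and 1, 7 and 1, and 6 and 1. At day 10, 6 and 7 became 24 and 3, 6 and 18, and 21 and 7, and at day 14, 7 and 8 became 2 and 18, 14 and 3, and 5 and 17. The angiogenesis splits of 1 and 1, 6 and 10, and 4 and 6 became 2 and 1, 2 and 45, and 1 and 47 without normalization. They were 1 and 2, 16 and 4, and 23 and 5 with median scaling and 2 and 1, 3 and 36, and 1 and 49 with reference genes.

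Genotype over the days stayed at 0 calls on both membrane types under every alternative run. The day 10 minus day 7 calls on the hypoxia arrays went from 0 to 38 without normalization, 19 with median scaling and 26 with reference gene scaling. On the angiogenesis arrays 31 became 68 with reference gene scaling. The 12 calls of day 14 minus day 10 on the hypoxia arrays became 33, 25 and 39 under these 3 scalings and 19 with no genotype block.

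The day 10 minus day 7 calls of Spp1, Tnc and Col18a1, at -2.28, -3.15 and -2.07, turned to 4.17, 1.27 and 0.54 without normalization. For Plod3, Sparc, Fn1 and Itga5, none of the directions that turned was past the threshold with quantile normalization. Col1a1 and Ctgf were fitted too, with spots at or near the ceiling. Under median scaling limma called their day 10 minus day 7 differences on the hypoxia arrays, at -3.88 and -3.93 (adjusted p = 0.00436 and 0.00423). It also called Ctgf on the angiogenesis arrays, at -3.53 (adjusted p = 0.0230). The genotype effect of Plod3 went from 0.0044 to -0.0012 without background correction and to -0.37 without day 14. That of Fn1 turned to -0.41 without day 7, and that of Itga5 to 0.042 without day 10 and 0.13 without day 14. From day 7 to day 10 Plod3 turned to 4.64, 0.56 and 2.89 without normalization and with median and reference gene scaling, and Sparc to 4.77, 1.23 and 5.68. Itga5 turned to 2.34 without normalization and to 3.24 with reference gene scaling. Fn1 passed the test under these 3 scalings, at 7.46, 3.92 and 8.37, with its WT day 7 value at background. From day 10 to day 14 Sparc turned to -0.80 with reference gene scaling, Fn1 to -0.56 without normalization and -1.49 with reference genes, and Itga5 to -0.27 and -1.21. The number of arrays, the ceiling and the control spots limit the precision of every value.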

Other observations

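The authors' deposited table holds a ratio of Ctgf to Actb for 11 of its 12 arrays. The empty one is the hypoxia array of WT at day 14, although the Ctgf spot there had a density of 49310. The authors' deposited table also holds ratios for Fn1 at day 7, of 0.000914 in WT and 0.0124 in HET, while the WT spot, at 48.9, was dimmer than the brightest control spot of 241 on that array. From these ratios the day 7 difference would be 3.76 log2 units, against a bound of 0.61 from the densities.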
